A study of Mus musculus with 43 samples.

Results

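The 43 genes described here encode cyclins, cyclin-dependent kinases and their inhibitors, retinoblastoma and E2F proteins, replication factors and mitosis proteins. They were taken as a list of gene symbols, and all 43 were found among the 55416 genes counted in 43 RNA-seq libraries of glia from mouse cerebral cortex. Microglia (anti-CD45), oligodendrocyte precursor cells (OPCs, anti-PDGFRA), oligodendrocytes (GalC hybridoma) and astrocytes (anti-HepaCAM) had been immunopanned from the same cell suspensions of 3 month old mice, so that libraries of different cell types can come from the same animal. The mice were Rag2-/- animals, which lack mature T and B lymphocytes through a deletion carried in every cell, and littermate controls with at least 1 working Rag2 allele. They formed 6 littermate pairs of the Rag2tm1.1Cgn line on a C57BL/6J background. Controls were Rag2+/- in pairs 1, 2, 3 and 5 and Rag2+/+ in pairs 4 and 6. The libraries numbered 6 control and 5 Rag2-/- for OPCs, 4 and 4 for oligodendrocytes, 6 and 6 for astrocytes, and 6 and 6 for microglia. Both sexes were present among Rag2-/- and among control mice, while the Rag2+/+ controls were all male. In pair 6 the control was male and the Rag2-/- mouse female, and in the other pairs both mice had the same sex.

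In a dividing cell, D-type cyclins with Cdk4 or Cdk6 phosphorylate the retinoblastoma protein in G1, which releases E2F factors that switch on genes for DNA replication. Cyclin E and cyclin A with Cdk2 carry the cell into and through S phase, and cyclin B with Cdk1 drives mitosis. Inhibitors of the Cip/Kip and Ink4 families hold these kinases back and are also expressed by cells that have left the cycle. In the adult cortex OPCs keep dividing, whereas mature oligodendrocytes do not divide and astrocytes and microglia divide rarely in the absence of injury. Transcripts of these genes also have roles outside division, so that a level in a bulk library is not a count of dividing cells. Fewer cells expressing a gene and less RNA per cell cannot be told apart in these libraries.

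The libraries held 6499417 to 23118497 read pairs on genes, with a median of 10447042. Mitochondrially encoded genes took 22.4% to 36.7% of the counts in OPC libraries, 45.8% to 60.1% in oligodendrocyte, 22.5% to 45.1% in astrocyte and 6.76% to 11.7% in microglia libraries. Each cell type had been sequenced on its own lane, so that lane and cell type cannot be told apart. All 8 markers of each purified type were present in its own libraries, where their summed levels were above those in every library of another type. The 8 OPC markers summed to 6680 to 8919 CPM (counts scaled to a common library size after normalisation by trimmed mean of M values, TMM) in OPC libraries and to at most 2199 CPM elsewhere. The 8 astrocyte markers summed to 2080 to 3086 CPM in control and 2445 to 5833 CPM in Rag2-/- OPC libraries, and the 8 neuron markers to 574 to 3048 CPM in oligodendrocyte libraries. The 8 microglia markers summed to 264 to 1063 CPM in oligodendrocyte, 147 to 799 CPM in OPC and 65.4 to 275 CPM in astrocyte libraries. In microglia libraries they summed to 7471 to 9177 CPM. By the study's methods, anti-CD45 can also bind some peripheral macrophages, which perfusion reduced. In microglia libraries 7 border macrophage and monocyte markers summed to 327 to 787 CPM. There 6 neutrophil markers summed to 5.99 to 84.4 CPM and 8 T and B lymphocyte markers to 5.30 to 23.5 CPM. The part of RNA from other cell types in the levels below was not tested. Rag2 had 6 counts over the 22 control libraries and 0 over the 21 Rag2-/- libraries, which is too low to check the genotype labels.

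OPC libraries held more transcript of the G2 and mitosis genes than libraries of any other glial type. The 15 genes of this group include the mitotic cyclins and Cdk1, the proliferation antigen Mki67, the topoisomerase Top2a, and proteins of the kinetochore, spindle and anaphase. Their levels summed to 116 ± 20.7 CPM in OPCs (SD, n = 11). The sums were 41.4 ± 19 CPM in oligodendrocytes (n = 8), 21.6 ± 10.9 CPM in astrocytes (n = 12) and 34.8 ± 8.06 CPM in microglia (n = 12). The lowest OPC library, at 79.8 CPM, lay above the highest library of every other type, which was an oligodendrocyte library at 65.0 CPM. Between 14 and 15 of the 15 genes had more than 3 counts in each OPC library, compared with 5 to 10 in oligodendrocyte, 7 to 13 in astrocyte and 8 to 13 in microglia libraries. Of the 15 genes, 11 were called higher in OPCs than in oligodendrocytes (25% of all genes), 14 than in astrocytes (25.4%) and 11 than in microglia (38.7%). In each comparison 0 of the 15 were called lower (15.7%, 17.1% and 30.8% of all genes). Their median log2 fold change was 2.95 over oligodendrocytes (2.14 with Plk1 at its bound), 2.26 over astrocytes and 2.63 over microglia. Not called were Ccnb2, Bub1b, Birc5 and Cenpe against oligodendrocytes, Aurka against astrocytes, and Ccnb2, Bub1b, Aurka and Kif11 against microglia.

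**Figure D1:**
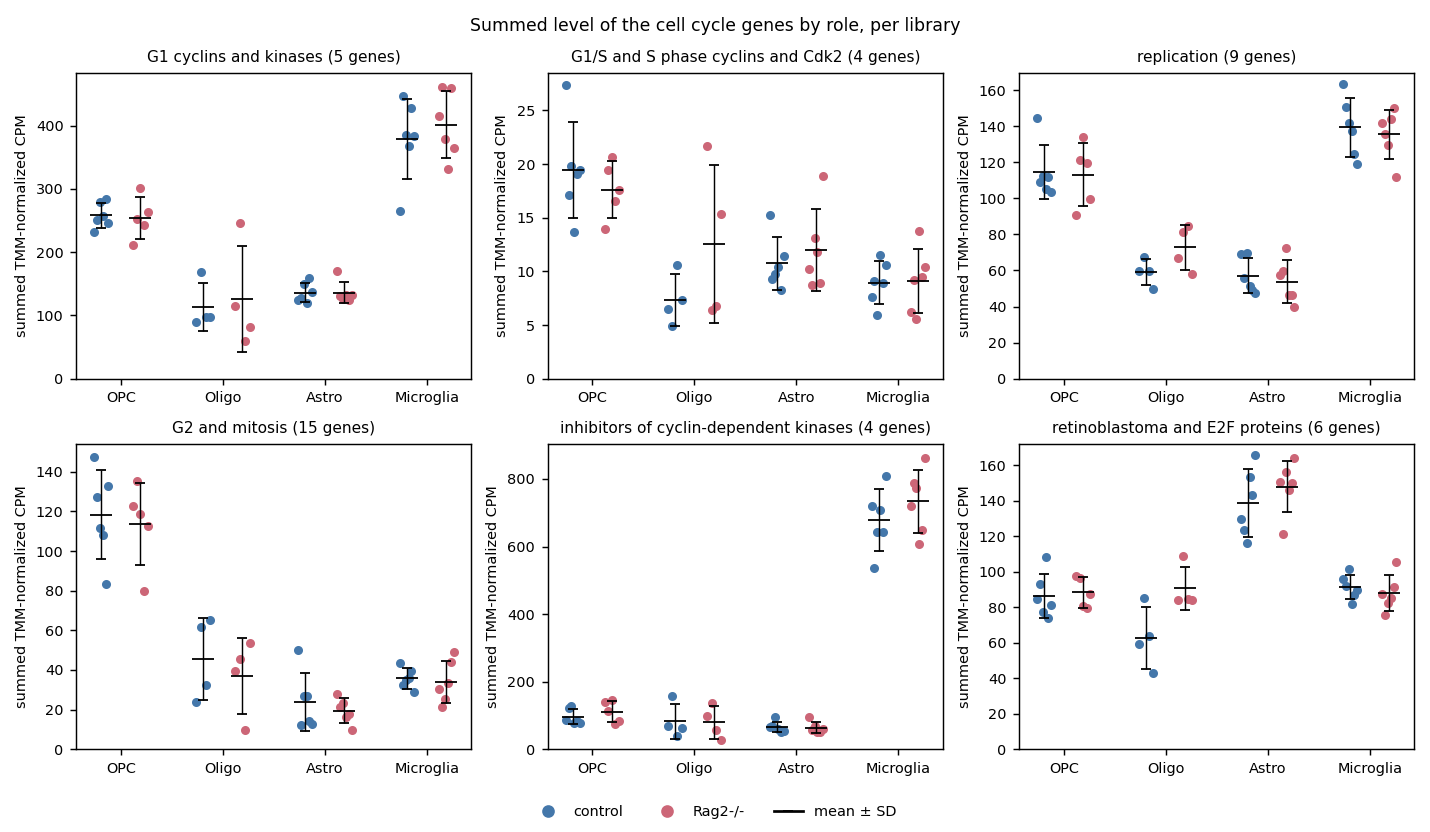
Summed TMM-normalised CPM of the genes of each role in every library (points, blue for control and red for Rag2-/-), with the mean and SD of each group. The G2 and mitosis panel has all 11 OPC libraries at 79.8 to 147 CPM and all other libraries at 9.57 to 65.0 CPM, while the inhibitors are highest in microglia at 537 to 863 CPM.

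Fold changes between cell types were tested with edgeR's quasi-likelihood test in a fit over all libraries, averaged over genotypes, and a gene was called at an adjusted p under 0.05. Against oligodendrocytes 26 of the 43 genes were higher in OPCs and 0 were lower, where 25% of all genes tested were called higher and 15.7% lower. The median log2 fold change was 1.42 for the 43 genes and 0.24 for all genes. Against astrocytes 30 were higher (25.4% of all genes) and 2 were lower (17.1%), with a median of 1.90 compared with 0.14. Against microglia 24 were higher (38.7%) and 5 were lower (30.8%), with a median of 1.46 compared with 0.18. OPC libraries lay wholly above oligodendrocyte libraries for 1 gene, Ccnd1 (4.02% of all genes). They lay wholly above astrocyte libraries for 9 (7.12%) and below them for 2 (5.91%), and above microglia libraries for 15 (18.3%) and below them for 4 (16.6%). A set of 16 of the 43 genes was called higher in OPCs than in each of the other types, as were 5.75% of all genes: Ccnd1, Ccna2, E2f8, Mcm2, Mcm5, Mcm6, Mcm7, Ccnb1, Cdk1, Mki67, Top2a, Bub1, Aurkb, Plk1, Cenpf and Ube2c. These 3 comparisons share the OPC libraries.

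**Figure D2:**
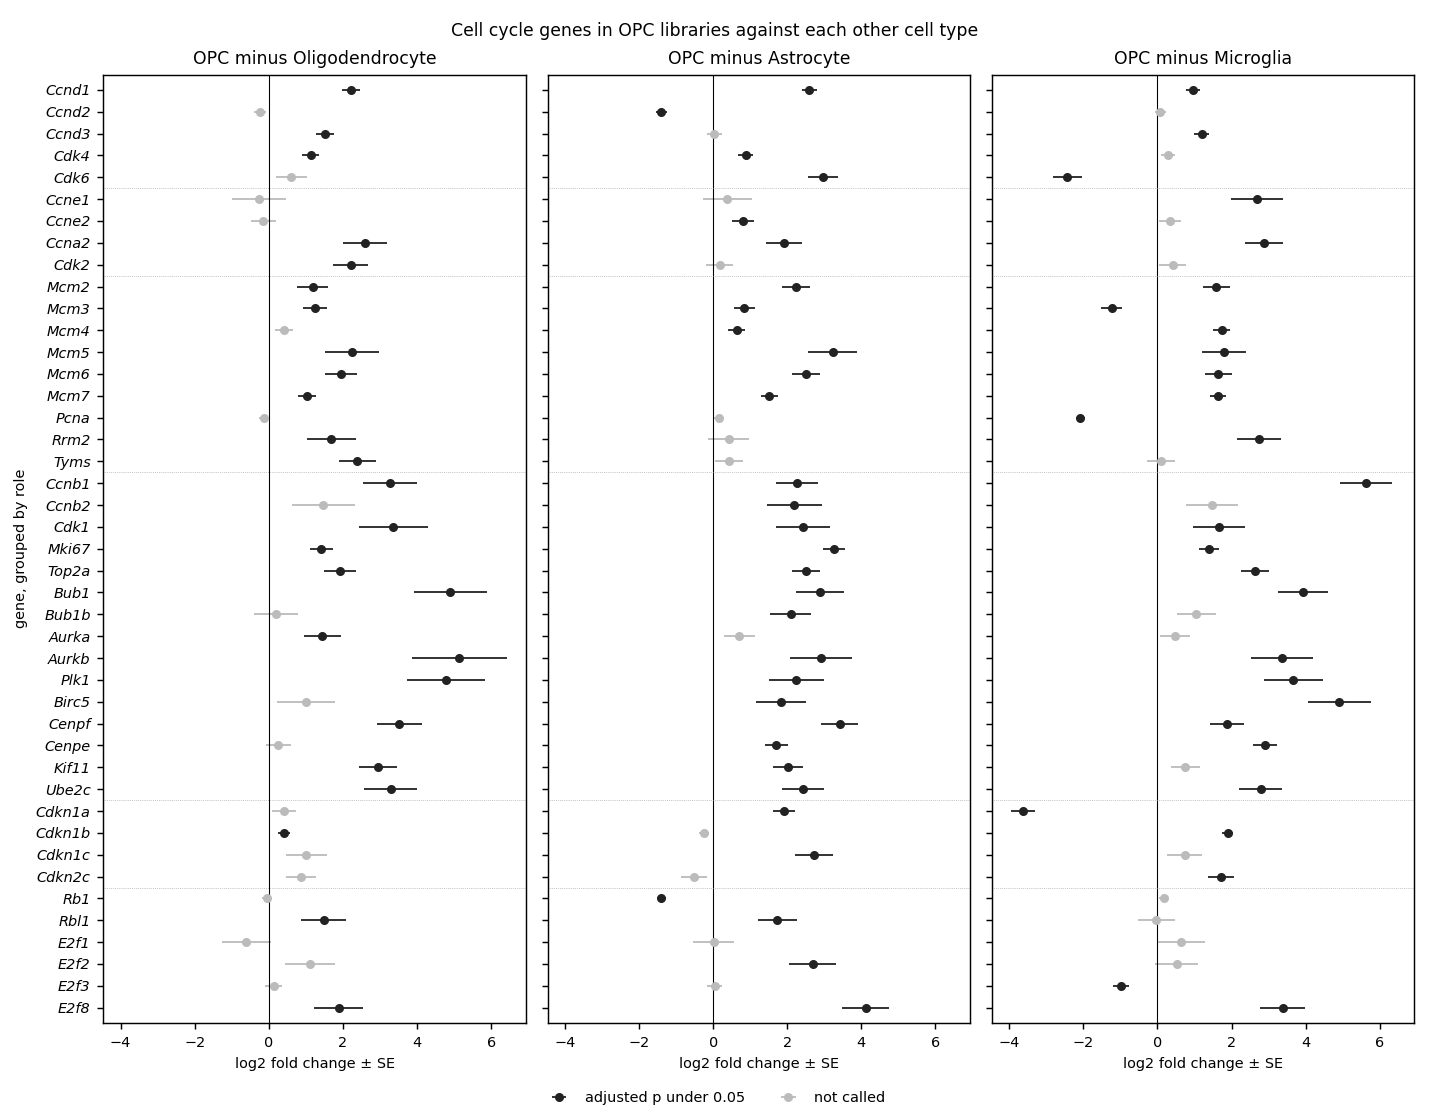
Log2 fold change ± SE of each of the 43 genes in OPCs compared with oligodendrocytes, astrocytes and microglia (black, adjusted p under 0.05; grey, not called), with dotted lines between role groups. Called mitosis genes lie to the right of 0 in all panels, while Cdk6, Cdkn1a, Pcna, Mcm3 and E2f3 lie to the left against microglia and Ccnd2 and Rb1 against astrocytes.

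The calls against oligodendrocytes, whose mitochondrial share was highest, moved with the scaling. When libraries were scaled to total gene counts in place of TMM, the median of all genes moved from 0.24 to 1.25 for OPCs minus oligodendrocytes, the calls over all genes from 5347 higher and 3356 lower to 13644 and 990, and the calls among the 43 genes from 26 and 0 to 40 and 0. For OPCs minus astrocytes the same change moved the median of all genes from 0.14 to 0.53 and the calls over all genes from 5436 and 3658 to 8792 and 2304, with 32 higher and 2 lower among the 43. Leaving the mitochondrially encoded genes out altogether gave 26, 32 and 29 calls among the 43, against oligodendrocytes, astrocytes and microglia.

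Mki67 (ENSMUSG00000031004, chr7:135291513-135318299 on GRCm39, minus strand), a chromosome surface protein made in every phase but G0, ranged from 15.1 through a median of 32.2 to 42.2 CPM in OPCs. It ranged from 1.88 through 10.9 to 27.5 CPM in oligodendrocytes, from 1.08 through 2.7 to 7.16 CPM in astrocytes, and from 5.03 through 12.3 to 16.2 CPM in microglia. OPC and astrocyte libraries did not overlap, and of the 11 OPC libraries 10 lay above every microglia library. The fold in OPCs was 2.68 over oligodendrocytes (adjusted p = 0.000326), 9.57 over astrocytes (adjusted p = 2.64e-12) and 2.62 over microglia (adjusted p = 2.00e-05). Top2a (chr11:98883769-98915062, minus strand), which untangles replicated chromosomes, ranged from 13.1 through 20.3 to 29.3 CPM in OPCs. The ranges were 1.28 through 4.13 to 13.9 CPM in oligodendrocytes, 0.837 through 2.91 to 14.6 CPM in astrocytes and 1.12 through 3.26 to 7.09 CPM in microglia. Its fold in OPCs was 3.79 over oligodendrocytes (adjusted p = 0.000336), 5.66 over astrocytes (adjusted p = 4.37e-07) and 6.2 over microglia (adjusted p = 4.96e-08). The call against oligodendrocytes was lost when control libraries alone were fitted (adjusted p = 0.124). Apart from 1 astrocyte library at 14.6 CPM, the astrocyte libraries lay at or below 5.47 CPM, under every OPC library.

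The kinase of mitosis and its partners were low in every type and highest in OPCs. Cdk1, the mitotic kinase, had 2.35 ± 1.84 CPM in OPCs, 0.259 ± 0.449 in oligodendrocytes, 0.520 ± 0.770 in astrocytes and 0.848 ± 1.10 in microglia (SD, n = 11, 8, 12 and 12). Its log2 fold change was 3.36 ± 0.93 over oligodendrocytes (SE, adjusted p = 0.00366), 2.41 ± 0.73 over astrocytes (adjusted p = 0.00629) and 1.66 ± 0.70 over microglia (adjusted p = 0.0326). All 3 calls were lost with control libraries alone, with adjusted p from 0.261 to 0.724, and the call over microglia also when any of 7 libraries was left out (up to 0.0969). Ccnb1, a mitotic cyclin, had 2.06 ± 1.33 CPM in OPCs and no more than 1 count in any microglia library. Its level in OPCs was at least 7.55-fold higher than the 0.273 CPM that 3 counts per library make in microglia. Of the Ccnb1 transcript's 50-base windows 58.9% match another place in the genome exactly, so that its counts are uncertain. Ccnb2, the other B-type cyclin, was called over astrocytes (log2 fold change 2.19 ± 0.74, adjusted p = 0.0156) and missed the threshold over oligodendrocytes (1.47 ± 0.84, adjusted p = 0.162) and microglia (1.46 ± 0.70, adjusted p = 0.0614).

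The mitotic kinases Plk1, Aurkb and Bub1 had their highest mean levels in OPCs. Plk1, which acts at centrosomes and kinetochores, had 1.86 ± 1.41 CPM in OPCs and at most 3 counts in any oligodendrocyte library, so that OPCs were at least 4.41-fold higher than the 0.423 CPM of 3 counts. Its call over astrocytes (4.74-fold, adjusted p = 0.0126) was lost without OPC Rag2-/- replicate 2 (0.0530). Aurkb, the kinase of the chromosomal passenger complex, had 2.22 ± 1.47 CPM in OPCs and 0.217 to 0.339 CPM on average in the other types, with 0 counts in 6 of 8 oligodendrocyte and 6 of 12 astrocyte libraries. Bub1, a spindle checkpoint kinase, ranged from 1.15 to 4.86 CPM in OPCs and reached 2.14 CPM in oligodendrocytes, 1.17 in astrocytes and 0.627 in microglia. Aurka, the spindle pole kinase, was called over oligodendrocytes alone (log2 fold change 1.44 ± 0.50, adjusted p = 0.0188). That call was lost with the mouse as a block (adjusted p = 0.231), without a filter on low counts (0.0747) and with control libraries alone (0.800), and 38.6% of Aurka's exon bases overlap a gene on the other strand.

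Among the kinetochore, motor and anaphase genes, Cenpf, Kif11 and Ube2c were higher in OPCs than in oligodendrocytes and astrocytes. Cenpf, a kinetochore protein, had 13.1 ± 4.68 CPM in OPCs, and was 11.5-fold higher than in oligodendrocytes (adjusted p = 8.23e-06), 10.7-fold higher than in astrocytes (adjusted p = 2.43e-07) and 3.69-fold higher than in microglia (adjusted p = 0.000372). Kif11, the motor that separates spindle poles, had 12.9 ± 4.41 CPM in OPCs and was 7.75-fold higher than in oligodendrocytes and 4.03-fold higher than in astrocytes, while its 1.68-fold difference from microglia missed the threshold (adjusted p = 0.0859). Ube2c, the ubiquitin-conjugating enzyme of the anaphase-promoting complex, had 5.94 ± 3.54 CPM in OPCs and was 5.33-fold to 9.75-fold higher there than in the other types. Cenpe, a kinetochore motor, did not follow this order against oligodendrocytes, with 8.57 ± 3.50 CPM in OPCs and 7.02 ± 3.66 CPM in oligodendrocytes (log2 fold change 0.26 ± 0.34, adjusted p = 0.574). It was 3.27-fold higher in OPCs than in astrocytes and 7.49-fold higher than in microglia.

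Bub1b and Birc5 varied widely among oligodendrocyte libraries. Bub1b, a checkpoint protein, had 3.86 ± 1.43 CPM in OPCs and 5.23 ± 12.2 CPM in oligodendrocytes, where control replicate 3 stood at 35.5 CPM and the other 7 libraries at or below 1.92 CPM. Birc5, a passenger complex subunit, stood at 3.75, 8.43 and 10.5 CPM in Rag2-/- oligodendrocyte replicates 1, 3 and 6 and at 0 in replicate 5, and in the control libraries at 0.903 CPM in replicate 3 and at 0 in the others. OPCs had 2.33 ± 1.33 CPM of Birc5, with a log2 fold change of 1.83 ± 0.68 over astrocytes (adjusted p = 0.0284) and 4.91 ± 0.85 over microglia (adjusted p = 2.47e-06). The call over astrocytes was lost without OPC control replicate 2 (adjusted p = 0.0773), without OPC Rag2-/- replicate 2 (0.0591) and with the mouse as a block (0.0618).

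The replication genes were also higher in OPCs than in oligodendrocytes and astrocytes, but their summed level was highest in microglia. They encode the 6 subunits of the Mcm2-7 helicase, the sliding clamp Pcna, and the nucleotide synthesis enzymes Rrm2 and Tyms. The 9 genes summed to 114 ± 15.4 CPM in OPCs, 66.0 ± 11.9 in oligodendrocytes, 55.5 ± 10.6 in astrocytes and 137 ± 14.5 in microglia. OPCs were higher than oligodendrocytes in 7 of 9 and lower in 0 (25% and 15.7% of all genes). They were higher than astrocytes in 6 and lower in 0 (25.4% and 17.1%), and higher than microglia in 6 and lower in 2 (38.7% and 30.8%). Mcm6 ranged from 13.2 through 19.3 to 30.6 CPM in OPCs and had a mean of 3.79 to 6.32 CPM in the other types. It was 3.83-fold higher in OPCs than in oligodendrocytes (adjusted p = 0.000366), 5.70-fold higher than in astrocytes (adjusted p = 5.46e-07) and 3.12-fold higher than in microglia (adjusted p = 0.000116).

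The remaining helicase subunits did not share a single pattern. Mcm2, Mcm5 and Mcm7 were higher in OPCs than in every other type, by 2.26-fold, 4.73-fold and 2.05-fold over oligodendrocytes. With the mouse as a block the Mcm2 call over oligodendrocytes was lost (adjusted p = 0.0549). Mcm3 was highest in microglia at 22.2 ± 4.26 CPM, against 9.44 ± 3.28 CPM in OPCs, and no microglia library overlapped an OPC library (log2 fold change of OPCs minus microglia -1.24 ± 0.28, adjusted p = 0.000132). Mcm4 was 3.34-fold higher in OPCs than in microglia (adjusted p = 9.44e-09), and its call over astrocytes (1.55-fold, adjusted p = 0.0191) was lost when any of 5 libraries was left out (up to 0.0917).

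Pcna set the microglial sum of the replication group. Its level ranged from 73.1 through 87.8 to 120 CPM in microglia and from 17 through 21 to 26.7 CPM in OPCs, with 23 ± 4.30 CPM in oligodendrocytes and 18.8 ± 4.18 CPM in astrocytes. Microglia libraries lay above all OPC, oligodendrocyte and astrocyte libraries, by 4.22-fold, 3.84-fold and 4.69-fold (adjusted p = 1.83e-18, 8.11e-16 and 6.08e-20). Of the 50-base windows of Pcna, 54.8% match another place in the genome exactly, and the clamp also serves in DNA repair. Rrm2, a subunit of ribonucleotide reductase, was called higher in OPCs than in oligodendrocytes (3.21-fold, adjusted p = 0.0383, lost when any of 8 libraries was left out) and microglia (6.71-fold, adjusted p = 9.00e-05). Tyms, thymidylate synthase, was 5.24-fold higher in OPCs than in oligodendrocytes (adjusted p = 0.000156), with 3.48 ± 1.24 CPM in OPCs, 3.33 ± 1.18 in microglia and 2.66 ± 1.31 in astrocytes.

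Promoters of 8 of the mitosis and replication genes called higher in OPCs than in oligodendrocytes are shown, so that their motifs before the start can be read in place. The 8 do not stand for the genes not shown. Promoter sequences from RefSeq on build GRCm38.p6, from 250 bases before to 50 bases after the transcription start, were found for 35 of the 43 genes (41 promoters) and for 32851 promoters in all. Ccnd1, Ccnd2, Ccne2, Ccna2, Cdkn1c, Rb1, Mcm4 and Aurkb were not among them. Both strands were searched for TTTGAA, the core of the cell cycle genes homology region (CHR), for CCAAT, and for the E2F motifs TTCCCGC and TTGGCGC. The stretches below run 5′ to 3′ on the gene's strand and end before the start, with motif letters in capitals, also where a motif reads on the other strand. A CCAAT box can overlap an E2F motif, as in Ccnb1, where 1 run of capitals holds both.
Cdk1, chr10:69352916-69353126, minus strand: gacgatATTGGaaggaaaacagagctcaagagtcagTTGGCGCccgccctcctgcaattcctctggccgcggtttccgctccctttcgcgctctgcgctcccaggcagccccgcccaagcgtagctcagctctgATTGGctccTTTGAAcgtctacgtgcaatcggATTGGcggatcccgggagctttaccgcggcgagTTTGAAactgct
Mki67, chr7:135716434-135716573, minus strand: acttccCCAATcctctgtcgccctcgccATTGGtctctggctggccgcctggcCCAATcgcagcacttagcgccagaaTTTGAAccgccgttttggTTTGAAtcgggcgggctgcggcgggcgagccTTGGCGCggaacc
Top2a, chr11:99024201-99024422, minus strand: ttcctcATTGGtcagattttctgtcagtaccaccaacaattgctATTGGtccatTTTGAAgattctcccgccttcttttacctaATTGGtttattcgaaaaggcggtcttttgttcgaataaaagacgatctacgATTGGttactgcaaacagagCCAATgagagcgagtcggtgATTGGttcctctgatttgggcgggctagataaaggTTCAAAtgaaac
Ccnb1, chr13:100786543-100786594, minus strand: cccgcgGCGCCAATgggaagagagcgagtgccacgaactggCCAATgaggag
Kif11, chr19:37376331-37376374, plus strand: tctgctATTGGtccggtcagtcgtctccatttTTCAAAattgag
Ube2c, chr2:164769695-164769911, plus strand: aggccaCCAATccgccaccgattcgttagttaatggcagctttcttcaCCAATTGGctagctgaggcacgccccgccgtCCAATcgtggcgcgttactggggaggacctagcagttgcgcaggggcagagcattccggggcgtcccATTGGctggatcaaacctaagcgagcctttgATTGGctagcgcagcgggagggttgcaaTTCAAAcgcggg
Mcm5, chr8:75109339-75109497, plus strand: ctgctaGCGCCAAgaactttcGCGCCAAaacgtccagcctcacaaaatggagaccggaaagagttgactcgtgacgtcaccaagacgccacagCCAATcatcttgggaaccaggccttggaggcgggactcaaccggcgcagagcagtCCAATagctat
Mcm6, chr1:128359709-128359820, minus strand: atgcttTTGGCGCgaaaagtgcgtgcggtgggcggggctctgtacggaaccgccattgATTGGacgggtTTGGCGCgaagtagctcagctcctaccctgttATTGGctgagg

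The Cdk1 stretch holds 2 copies of TTTGAA, 3 CCAAT boxes and an E2F motif. Top2a holds 6 CCAAT boxes in its 222 bases, Ube2c also holds 6, and Mcm5 and Mcm6 each hold 2 E2F motifs and 2 CCAAT boxes. Over the window to 50 bases after the start, 10 of 14 mitosis genes with a promoter held the CHR core, 13 a CCAAT box and 3 an E2F motif. Of 8 replication genes these numbers were 1, 7 and 4. Among called genes not shown above, Tyms held none of the motifs in this window, Rrm2 only 1 CCAAT box and Bub1 only 2. Mcm3, also not shown, held 3 CCAAT boxes and 3 E2F motifs, and Mcm7 held 3 and 2. In Aurka, Bub1b, Cenpf and Plk1 the CHR core did not lie wholly before the start. Over the 41 promoters, 34.1% held the CHR core (95% Wilson interval 21.6% to 49.5%), compared with 17.9% of all promoters. These intervals take promoters as independent, although 6 genes had more than 1 promoter, so that they may be too narrow. A CCAAT box was in 70.7% (55.5% to 82.4%) compared with 37.4%, and an E2F motif in 31.7% (19.6% to 47.0%) compared with 6.81%. In the 250 bases before the start alone, the CHR core was in 24.4% (13.8% to 39.3%), an interval that holds the 16% of all promoters. A CCAAT box was in 68.3% there (53% to 80.4%) compared with 33.8%, and an E2F motif in 26.8% (15.7% to 41.9%) compared with 5.62%. A match here is a match of letters and not a site shown to be bound.

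The G1 genes divided by cell type. D-type cyclins and their kinases summed to 256 ± 25.3 CPM in OPCs, 120 ± 60.2 in oligodendrocytes, 136 ± 15.6 in astrocytes and 391 ± 57.0 in microglia. Ccnd1 (chr7:144483668-144493662, minus strand), cyclin D1, was the member with the highest level per kilobase of exon in OPCs, at 24.6 CPM per kb, followed by Cdk4 at 14. Its CPM ranged from 82.4 through 121 to 140 in OPCs, from 8.87 through 24.9 to 45.6 in oligodendrocytes, from 12.0 through 18.4 to 28.3 in astrocytes and from 41.9 through 57.5 to 81.3 in microglia. Every OPC library lay above every library of the other types. The folds were 4.65 over oligodendrocytes (adjusted p = 2.30e-10), 6.02 over astrocytes (adjusted p = 4.06e-14) and 1.95 over microglia (adjusted p = 2.69e-05). A gene on the other strand, LTO1, overlaps 48.4% of the exon bases of Ccnd1, and the strand setting of the counting was not given in the sources used here.

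Ccnd2, cyclin D2, had the opposite placement. It ranged from 52.3 through 69.6 to 87.2 CPM in astrocytes, wholly above the 16.7 through 27.1 to 36.1 CPM of OPCs, the 20.4 to 46.2 CPM of oligodendrocytes and the 18.7 to 31.7 CPM of microglia. Astrocytes were higher than OPCs by 2.63-fold (adjusted p = 2.91e-10), than oligodendrocytes by 2.24-fold (adjusted p = 1.76e-07) and than microglia by 2.77-fold (adjusted p = 7.41e-12). Between OPCs and microglia the log2 difference of Ccnd2 was 0.07 ± 0.15 (adjusted p = 0.686). Ccnd3, cyclin D3, had like levels in OPCs and astrocytes, 14.6 ± 3.49 and 14.3 ± 3.50 CPM, and both lay above oligodendrocytes and microglia. The Ccnd3 fold of OPCs was 2.84 over oligodendrocytes (adjusted p = 3.64e-06) and 2.29 over microglia (adjusted p = 3.26e-06).

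**Figure D3:**
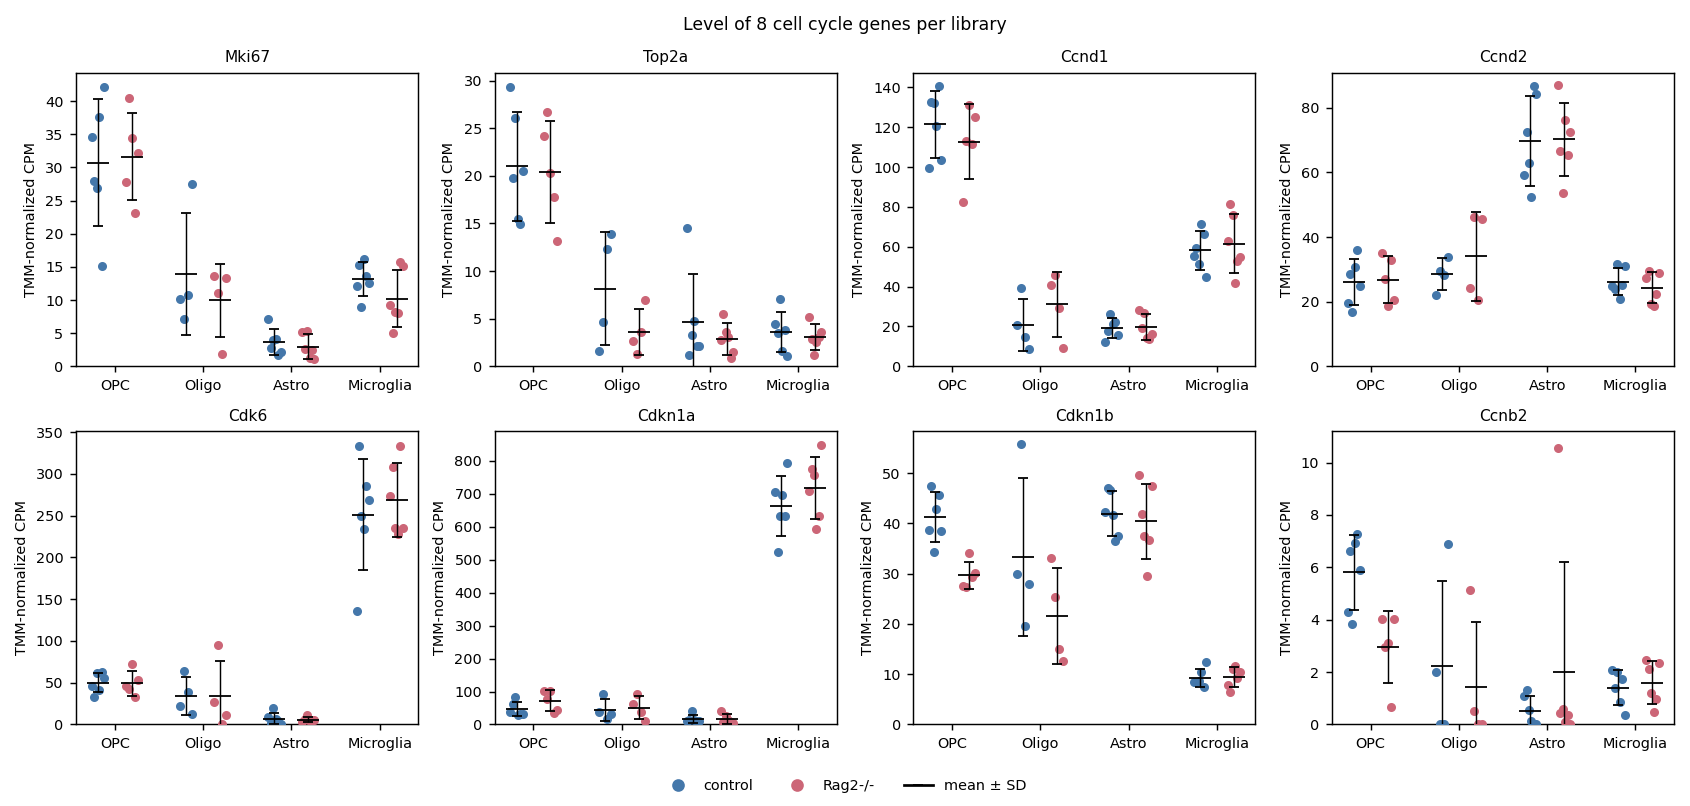
TMM-normalised CPM of 8 genes in every library (points, blue for control and red for Rag2-/-), with the mean and SD of each group; bars that would reach below 0 are cut at the axis. Ccnd1 is highest in OPCs, Ccnd2 in astrocytes, and Cdk6 and Cdkn1a in microglia, while Cdkn1b in OPCs has its Rag2-/- libraries at 27.4 to 34.0 CPM and its controls at 34.3 to 47.5 CPM.

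Cdk6, a kinase of D-type cyclins, was highest in microglia, and Cdk4, the other, had its highest mean in OPCs. Cdk6 ranged from 135 through 259 to 334 CPM in microglia, from 32.8 through 46.2 to 72.5 in OPCs, from 0.314 through 24.9 to 94.9 in oligodendrocytes and from 0.757 through 4.88 to 20.2 in astrocytes. Microglia lay above every other library, by 5.39-fold over OPCs (adjusted p = 5.50e-07), 8.18-fold over oligodendrocytes (adjusted p = 2.06e-07) and 42.1-fold over astrocytes (adjusted p = 1.36e-14). OPC libraries in turn lay above all astrocyte libraries (7.81-fold, adjusted p = 5.14e-08). Cdk4 had 48.2 ± 8.64 CPM in OPCs, above oligodendrocytes by 2.18-fold (adjusted p = 9.02e-05) and astrocytes by 1.84-fold (adjusted p = 0.000288). Its difference from the 39.1 ± 5.63 CPM of microglia was not called (log2 fold change 0.29 ± 0.19, adjusted p = 0.180).

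The cyclins of the G1 to S transition and of S phase, with Cdk2, summed to 18.6 ± 3.71 CPM in OPCs and to 9.01 to 11.3 CPM on average in the other types. Ccna2, cyclin A, ranged from 3.38 through 5.98 to 11.6 CPM in OPCs and had a mean of 1.32 ± 2.12 CPM in oligodendrocytes, 1.59 ± 1.08 in astrocytes and 0.815 ± 0.659 in microglia. OPCs were higher by 6.07-fold, 3.74-fold and 7.34-fold (adjusted p = 0.000557, 0.00141 and 3.69e-06). Cyclin E genes did not follow cyclin A. Ccne1 had 2.12 ± 1.16 CPM in OPCs and 2.67 ± 3.11 in oligodendrocytes, and was called over microglia alone (6.43-fold, adjusted p = 0.000939). Ccne2 had 3.23 ± 1.16 CPM in OPCs and 3.61 ± 2.00 in oligodendrocytes, and its call over astrocytes (1.76-fold, adjusted p = 0.0272) was lost when any of 8 libraries was left out (up to 0.125). Cdk2, their kinase, was lowest in oligodendrocytes at 2.33 ± 3.40 CPM, which was below OPCs by 4.64-fold (adjusted p = 0.000219), astrocytes by 4.11-fold (adjusted p = 0.000344) and microglia by 3.50-fold (adjusted p = 0.000770).

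The 4 inhibitors of cyclin-dependent kinases summed to 705 ± 93.5 CPM in microglia, 103 ± 27 in OPCs, 80.6 ± 45.7 in oligodendrocytes and 64.6 ± 15.4 in astrocytes. Cdkn1a (p21, chr17:29309936-29319701, plus strand) ranged from 525 through 701 to 848 CPM in microglia, from 28.9 through 44.1 to 102 in OPCs, from 9.50 through 37.8 to 93.9 in oligodendrocytes and from 3.98 through 11.9 to 41.9 in astrocytes. No microglia library overlapped another type, and the folds were 12.4 over OPCs (adjusted p = 2.05e-13), 16.4 over oligodendrocytes (adjusted p = 1.12e-12) and 46.5 over astrocytes (adjusted p = 1.80e-18). A list of 8 genes known to respond to cell dissociation summed to 3964 to 7360 CPM in microglia and to 1123 to 2557 CPM in the other types, and its part in the level of Cdkn1a was not tested. Per kilobase, Cdkn1a was the most abundant of the 43 genes in microglia at 114 CPM per kb.

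Cdkn1b (p27, chr6:134897364-134902476, plus strand), which restrains Cdk2 and rises as precursors leave the cycle, was lowest in microglia. It ranged from 6.54 through 8.87 to 12.4 CPM there, from 27.4 through 34.3 to 47.5 in OPCs, from 12.7 through 26.6 to 55.9 in oligodendrocytes and from 29.6 through 41.8 to 49.7 in astrocytes. OPCs lay above microglia by 3.73-fold (adjusted p = 4.76e-15), and astrocytes lay above microglia by 4.42-fold (adjusted p = 7.53e-17). The 1.33-fold difference between OPCs and oligodendrocytes was near the threshold (adjusted p = 0.0390), was lost when any of 7 libraries was left out (up to 0.117), and was lost in 6 of 8 other settings. These were DESeq2 on filtered genes (0.0555), edgeR with DESeq2's size factors (0.0682), a mean count of at least 10 (0.0697), the mouse as a block (0.0764), no filter on low counts (0.101) and control libraries alone (0.271). Cdkn1c (p57) was lowest in astrocytes, at 0.706 ± 0.531 CPM against 4.72 ± 1.88 in OPCs (6.60-fold, adjusted p = 2.93e-05). Cdkn2c (p18) was 3.29-fold higher in OPCs than in microglia (adjusted p = 4.76e-05), with 6.30 ± 2.57 CPM in astrocytes and 4.44 ± 0.933 CPM in OPCs (adjusted p = 0.233).

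Of the retinoblastoma and E2F genes, Rb1 was highest in astrocytes, E2f8 in OPCs and E2f3 in microglia. Rb1, the pocket protein that holds E2F factors, ranged from 97 through 121 to 149 CPM in astrocytes. It ranged from 35.0 through 43.1 to 60.4 CPM in OPCs, from 36.8 to 84.2 in oligodendrocytes and from 30.6 to 64 in microglia, so that astrocytes lay above all others, by 2.65-fold, 2.54-fold and 2.97-fold (adjusted p = 6.96e-13, 3.98e-11 and 1.64e-15). E2f8, a repressor E2F induced in S phase, had 11.8 ± 3.93 CPM in OPCs. It was higher there than in oligodendrocytes by 3.69-fold (adjusted p = 0.0210), astrocytes by 17.3-fold (adjusted p = 1.10e-06) and microglia by 10.5-fold (adjusted p = 5.02e-06). Its OPC and oligodendrocyte libraries overlapped, as OPC control replicate 4 stood at 4.37 CPM and oligodendrocyte Rag2-/- replicate 1 at 14.5 CPM. E2f3, an activator, had 39.1 ± 7.67 CPM in microglia and 18.2 to 20 CPM on average in the others, with a 1.98-fold difference from OPCs (adjusted p = 5.47e-05). E2f1, the best known activator, had 0.879 to 2.25 CPM on average and was called in no comparison of OPCs. Rbl1 (p107) was 3.32-fold higher in OPCs than in astrocytes (adjusted p = 0.00623), at 5.96 ± 2.08 CPM, beside 6.07 ± 1.92 CPM in microglia. Its call over oligodendrocytes (adjusted p = 0.0440) was lost when any of 10 libraries was left out (up to 0.0869). E2f2 was called over astrocytes alone (6.43-fold, adjusted p = 0.000679).

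Between oligodendrocytes and astrocytes, 9 of the 43 genes were higher in oligodendrocytes and 8 in astrocytes (25.7% and 24% of all genes). Mki67 was 3.57-fold and Cdk6 5.14-fold higher in oligodendrocytes (adjusted p = 2.51e-06 and 7.51e-06), and Ccnd3 and Cdk2 were higher in astrocytes. The 8 microglia markers summed to 264 to 1063 CPM in oligodendrocyte and 65.4 to 275 CPM in astrocyte libraries. Cdk6 and Cdkn1a were highest in microglia, and the part of microglial RNA in their levels in the other types was not tested. Between oligodendrocytes and microglia 8 were higher in oligodendrocytes and 12 in microglia (33.2% and 34.8%), and between astrocytes and microglia 11 and 15 (36.5% and 33.5%). Under total gene counts the calls over all genes for oligodendrocytes minus astrocytes went from 5482 higher and 5135 lower to 3087 and 9462, and those among the 43 from 9 and 8 to 4 and 19. For oligodendrocytes minus microglia they went from 7096 and 7426 to 4643 and 11206, and from 8 and 12 to 4 and 21. A group of 6 of the 43 genes was called lower in microglia than in every other type (Ccne1, Cdkn1b, Mcm4, Ccnb1, Birc5 and Cenpe), where 23.7% of all genes were. In astrocytes 4 genes were called lower than in every other type (Mki67, Cdk6, Cdkn1a and Cdkn1c), where 6.29% of all genes were. The Birc5 call of oligodendrocytes over microglia (log2 fold change 3.91 ± 0.94, adjusted p = 0.000384) was lost without oligodendrocyte control replicate 3 (adjusted p = 0.933). The Bub1b call of oligodendrocytes over astrocytes (log2 fold change 1.90 ± 0.61, adjusted p = 0.00890) turned to -0.42 without the same library.

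Some counts may include reads from other genes. Of the 43 genes, 26 had under 10% of their exon bases overlapped by another gene and under 10% of their 50-base windows copied elsewhere. Among these 26, OPCs were higher than oligodendrocytes in 15 and lower in 0 (25% and 15.7% of all genes). They were higher than astrocytes in 20 and lower in 1 (25.4% and 17.1%), and higher than microglia in 16 and lower in 2 (38.7% and 30.8%). The 8 markers of neural progenitors and neuroblasts summed to 157 to 234 CPM in OPC, 29.5 to 120 in oligodendrocyte, 224 to 290 in astrocyte and 115 to 214 CPM in microglia libraries. Only 3 of the 8 had a median above 3 counts in microglia, compared with 6 of 8 in each other type. Igfbpl1 had 0 counts in every microglia and oligodendrocyte library. The part of progenitor RNA in the levels of the 43 genes was not tested.

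A further list of 100 cell cycle genes also had more calls higher than lower in OPCs. Of the 98 tested, 45 were higher and 7 lower in OPCs than in oligodendrocytes (25% and 15.7% of all genes), with a median log2 fold change of 0.92 compared with 0.24 for all genes. Against astrocytes 53 were higher and 9 lower (25.4% and 17.1%), with a median of 0.99 compared with 0.14. Against microglia 61 were higher and 15 lower (38.7% and 30.8%), with a median of 1.37 compared with 0.18. By the smallest p against oligodendrocytes, the leading genes higher in OPCs were Ckap2l, Spc25 and Cdc6. Ckap2l, a spindle protein, had 6.12 ± 1.54 CPM in OPCs and 1.04 ± 0.806 in oligodendrocytes (log2 fold change 2.69 ± 0.42, adjusted p = 1.96e-06), but 18.3 ± 5.40 CPM in microglia. Spc25, a kinetochore protein, had 2.49 ± 1.53 CPM in OPCs and at most 0.129 CPM in oligodendrocytes (adjusted p = 8.81e-06). Cdc6, which loads the helicase, had 1.67 ± 1.23 CPM in OPCs and 0 counts in all 8 oligodendrocyte libraries, where 3 counts make 0.423 CPM (adjusted p = 9.71e-06). The leading genes lower in OPCs were Stmn1 (-2.97 ± 0.20), Anln (-4.41 ± 0.34) and Tfdp2 (-1.62 ± 0.17). Anln, which encodes the cytokinesis protein anillin, had 263 ± 79.7 CPM in oligodendrocytes and 12.2 ± 6.28 CPM in OPCs (adjusted p = 4.93e-14). Stmn1, which encodes a microtubule regulator, had 87.3 ± 12.0 CPM in oligodendrocytes and 11.1 ± 4.60 CPM in OPCs (adjusted p = 1.06e-15).

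None of the 43 genes passed the threshold between Rag2-/- and control libraries in any cell type. Within each type Rag2-/- and control libraries were compared with edgeR's quasi-likelihood test with sex as a term. In OPCs all 43 genes had enough counts to be tested and 0 were called (0.00592% of all genes, which is 1 gene, were called). In oligodendrocytes 27 were tested and 0 called (0% of all genes), in astrocytes 30 and 0 (0.00679%), and in microglia 33 and 0 (0.00667%). At an unadjusted p under 0.05 there were 2 genes in OPCs (4.02% of all genes), 0 in oligodendrocytes (3.38%), 0 in astrocytes (2.87%) and 0 in microglia (2.90%). With no filter on low counts, DESeq2 also called 0 of the 43 in each type, where it called 0.0149% of all genes in OPCs, 0.685% in oligodendrocytes (19 higher and 181 lower in Rag2-/-), 0.00300% in astrocytes and 0.00916% in microglia. Its unadjusted p was under 0.05 for 2 of 43 members in OPCs (3.73% of all genes), for 5 of 42 in oligodendrocytes (5.38%), for 3 of 42 in astrocytes (2.67%) and for 1 of 43 in microglia (2.59%). The 5 in oligodendrocytes, named after their values were seen, were Birc5, Cdk2 and E2f8 on the higher side in Rag2-/- and Aurka and Top2a on the lower. Those in astrocytes were E2f8 and Mcm5, higher, and Ccnb1, lower, and that in microglia was Birc5, higher. The median log2 fold change of the tested members was -0.03 in OPCs, 0.41 in oligodendrocytes, -0.0024 in astrocytes and 0.07 in microglia, beside -0.0062, 0.0031, 0.0014 and -0.0057 for all genes. The median in oligodendrocytes was 0.24 with no sex term and 0.25 with the littermate pair as a block.

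**Figure D4:**
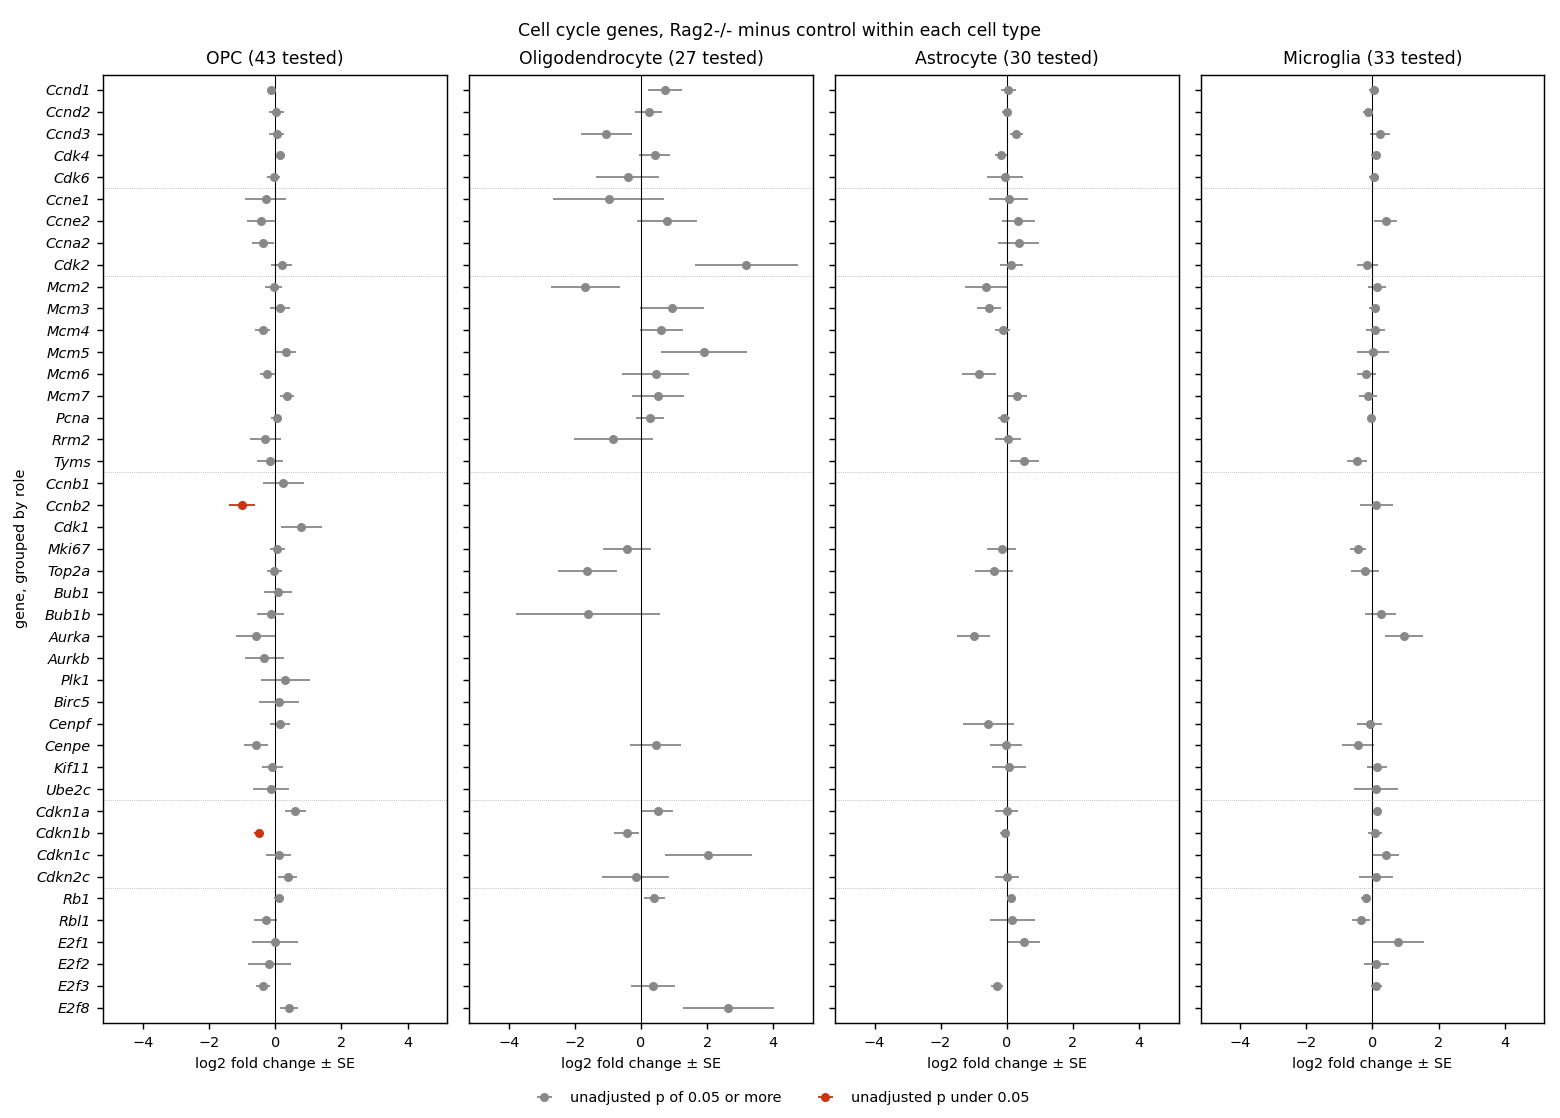
Log2 fold change ± SE of Rag2-/- minus control for each of the 43 genes that passed the filter in each cell type, with genes at an unadjusted p under 0.05 in red. Only Ccnb2 and Cdkn1b in OPCs are red, and error bars are widest in oligodendrocytes.

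The summed level of mitosis genes in OPCs was 118 ± 22.4 CPM in controls (n = 6) and 114 ± 20.7 CPM in Rag2-/- mice (n = 5). Mki67 ranged from 15.1 through 31.3 to 42.2 CPM in control OPCs and stood at 27.8, 40.5, 34.4, 23.2 and 32.2 CPM in Rag2-/- OPCs, which overlapped. Its log2 fold change was 0.06 ± 0.23 (95% interval -0.40 to 0.51). Top2a ranged from 15 through 20.1 to 29.3 CPM in control OPCs and stood at 24.2, 26.7, 20.3, 17.8 and 13.1 CPM in Rag2-/- OPCs, with a log2 fold change of -0.03 ± 0.22 (-0.46 to 0.40). Ccnd1 differed by -0.14 ± 0.12 and Ccnd2 by 0.03 ± 0.23 in OPCs. In oligodendrocytes Top2a differed by -1.62 ± 0.90 (95% interval -3.39 to 0.15), Mki67 by -0.42 ± 0.72, Ccnd1 by 0.72 ± 0.53, Cdkn1a by 0.50 ± 0.48 and Ccnd2 by 0.23 ± 0.41. The Top2a value was -0.88 without oligodendrocyte control replicate 6, and that of Cdkn1a ranged from 0.13 without Rag2-/- replicate 5 to 0.86 without control replicate 3. In microglia Mki67 differed by -0.44 ± 0.24 (-0.90 to 0.02), Top2a by -0.24 ± 0.42, Ccnd1 by 0.06 ± 0.15, Ccnd2 by -0.14 ± 0.16 and Cdkn1a by 0.12 ± 0.12. In astrocytes these genes differed by between -0.38 and 0.05, and every SE was larger than its difference in size.

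Cdkn1b and Ccnb2 were the genes with an unadjusted p under 0.05, both lower in Rag2-/- OPCs. Cdkn1b ranged from 34.3 through 40.7 to 47.5 CPM in control OPCs and stood at 27.5, 27.4, 34.0, 29.3 and 30.1 CPM in Rag2-/- OPCs, and the ranges did not overlap (0.403% of all genes). It was lower in the Rag2-/- mouse in 5 of 5 pairs, with a log2 fold change of -0.50 ± 0.13 (unadjusted p = 0.00161, adjusted p = 1.00 by edgeR). Its adjusted p was 0.308 with DESeq2 on all genes, and between 0.308 and 1 over the other settings and left-out libraries. Ccnb2 ranged from 3.82 through 6.27 to 7.27 CPM in control OPCs and stood at 4.04, 2.97, 3.12, 0.684 and 4.03 CPM in Rag2-/- OPCs, lower in 5 of 5 pairs (-1.01 ± 0.39, unadjusted p = 0.0195, adjusted p = 1.00). In OPCs 2 of the 43 genes were higher in Rag2-/- in 5 of 5 pairs (Cdkn1a and E2f8; 3.86% of all genes) and 4 were lower (Cdkn1b, Ccnb2, E2f3 and Aurka; 2.46%). Pair 6 among these set a male control beside a female Rag2-/- mouse, so that sex and genotype cannot be told apart in it. E2f8 differed by 0.42 ± 0.28, E2f3 by -0.36 ± 0.21 and Aurka by -0.58 ± 0.59. Cdkn1a had 28.9 through 36.1 to 83.7 CPM in controls and 101, 76.8, 102, 33.5 and 44.1 CPM in Rag2-/- OPC libraries (0.60 ± 0.31, unadjusted p = 0.0695). Without a filter on low counts Cdkn1a was called in OPCs (0.61, adjusted p = 0.0245, where 0.266% of all genes were called). The same setting called Mcm5 in astrocytes (0.0892% of all genes), where Rag2-/- replicate 1 stood at 14.9 CPM and the other 5 Rag2-/- libraries at or below 1.61 CPM. Of the 8 astrocyte markers 7 were higher in Rag2-/- than in control OPC libraries, all 7 at an unadjusted p under 0.05, with a median log2 fold change of 0.64. All 6 endothelial markers were also higher (median 0.86, 1 at an unadjusted p under 0.05), summing to 19.3 to 48.9 CPM in control and 26.0 to 84.2 CPM in Rag2-/- OPC libraries, and so were 6 of 7 mural and fibroblast markers (median 0.17, 1 at an unadjusted p under 0.05). In OPC libraries 7 of 8 oligodendrocyte markers were higher too (median 0.19, 0 at an unadjusted p under 0.05). In Rag2-/- oligodendrocyte libraries 0 of 8 neuron markers were higher (median -0.65, 2 at an unadjusted p under 0.05). There 0 of 4 mural and fibroblast markers (median -2.07, 1 at an unadjusted p under 0.05) and 7 of 8 OPC markers (median 0.28, 0) were higher. The part of RNA from other cell types in the genotype differences was not tested.

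The genotype difference in OPCs was also tested against the mean difference in the other 3 cell types, and 0 of 43 genes were called (0.00468% of all genes). At an unadjusted p under 0.05 there was 1 gene, Birc5 (5.62% of all genes), with a log2 difference of -2.75 ± 1.16 (unadjusted p = 0.0229, adjusted p = 0.787 by edgeR). Among the 4 cell types its genotype groups stood furthest apart in the oligodendrocyte libraries named above, while Birc5 had 2.23 ± 1.51 CPM in control and 2.44 ± 1.23 CPM in Rag2-/- OPCs. None of the 100 further cell cycle genes was called by genotype in any cell type. Of all genes, 0.00592% were called in OPCs, 0% in oligodendrocytes, 0.00679% in astrocytes and 0.00667% in microglia. In OPCs 5 of 96 tested had an unadjusted p under 0.05 (4.02% of all genes). The numbers were 2 of 57 in oligodendrocytes (3.38%), 1 of 66 in astrocytes (2.87%) and 2 of 64 in microglia (2.90%).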

How the data were processed

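Glial RNA had been amplified to cDNA (Ovation V2), made into NEBNext libraries and sequenced as 50-base read pairs. Per the study's methods and the submitters' notes, the authors aligned reads to GRCm39 with STAR 2.7.8a and counted them per gene with HTSeq; the strand setting is not given in the sources used here. The deposited files hold raw counts per gene, with 5 rows of read pairs on no gene (33.5% to 52.0% of each library), which were left out.

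Cell types were compared with edgeR 4.0.16 (quasi-likelihood test, TMM factors) in 1 fit with a mean for each of 8 groups and sex as a term, and genotypes within each type with sex as a term. Genes passed filterByExpr (minimum count 10, minimum total 15), p-values were two-sided and Benjamini-Hochberg adjusted over all genes tested, and calls took an adjusted p under 0.05. A group with no more than 3 counts in each library was taken at 3 counts. DESeq2 1.42.0 in R 4.3.3 was the other tool. Gene positions, overlaps and copies come from GENCODE annotation on GRCm39, and promoters from RefSeq on GRCm38.p6.

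The 43 genes and all lists were chosen with earlier results of these data known. Every gene of the 43 is described by role; single fold changes are given for called genes, for genes with an unadjusted p under 0.05 by genotype, and for Mki67, Top2a, Ccnd1, Ccnd2 and Cdkn1a. Fold changes short of the threshold given for Ccnb2, Cenpe, Kif11, Ccnd2 and Cdk4 between cell types, and for E2f3, E2f8 and Aurka by genotype, were chosen after their values were seen. Up to 3 further cell cycle genes in each direction are named by smallest p. Alternatives were other size factors, total counts, mitochondrial genes left out, other filters, DESeq2, no sex term, heterozygous controls, control libraries, blocks, and each library left out.

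The replicate numbers mark littermate pairs in the labels. The 2 mice of a pair were therefore taken as littermates. The pair was a term in an alternative fit by genotype, in place of sex, and not in the main fits. Same-pair deviations correlated at a mean of 0.104 in OPCs, 0.0995 in oligodendrocytes, 0.121 in astrocytes and 0.0830 in microglia, against -0.0328 to -0.0169 for other pairs. P-values by genotype within a cell type measure spread between mice. Those between cell types measure spread between libraries, and several libraries can share a mouse. The main fit had no term for the mouse, which entered an alternative fit as a block. Scripts were tested on simulated data.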

Additional observations from a re-analysis of the deposited data

Results flagged for a closer look

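Within groups of 4 to 6 libraries, a library was listed where its gap to the nearest other library was above the 95% critical value of Dixon's test over the group's range, which chance gives in about 1 in 20 groups. This held in 4 of 48 groups for the summed levels of a role (8.33%) and in 35 of 331 groups for single genes (10.6%). Astrocyte control replicate 1 stood apart for 7 genes, and 3 or 4 such values came from each of astrocyte Rag2-/- replicate 1, microglia control replicate 1 and oligodendrocyte control replicate 3.

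The summed level of G1 cyclins and kinases was 169.9 CPM in astrocyte Rag2-/- replicate 1 and 124 to 133 CPM in the other libraries of its group. The summed level of G1 cyclins and kinases was 169 CPM in oligodendrocyte control replicate 3 and 89.7 to 97.9 CPM in the other libraries of its group. The summed level of replication genes was 144 CPM in OPC control replicate 1 and 103.7 to 112 CPM in the other libraries of its group. The summed level of retinoblastoma and E2F genes was 109 CPM in oligodendrocyte Rag2-/- replicate 3 and 84.1 to 84.8 CPM in the other libraries of its group.

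Rb1 stood at 52.4 CPM in OPC control replicate 4 and at 39 to 43.3 CPM in the rest of that group. Rbl1 stood at 8.91 CPM in OPC Rag2-/- replicate 2 and at 3.6 to 5.06 CPM in the rest of that group. Cdk1 stood at 4.81 CPM in OPC control replicate 3 and at 0.641 to 1.65 CPM in the rest of that group.

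Rb1 stood at 84.2 CPM in oligodendrocyte Rag2-/- replicate 3 and at 42.1 to 49 CPM in the rest of that group. Rbl1 stood at 9.78 CPM in oligodendrocyte Rag2-/- replicate 6 and at 0 to 0.75 CPM in the rest of that group. Tyms stood at 0.942 CPM in oligodendrocyte Rag2-/- replicate 5 and at 0 to 0.107 CPM in the rest of that group. Ccnb2 stood at 5.14 CPM in oligodendrocyte Rag2-/- replicate 1 and at 0 to 0.511 CPM in the rest of that group. Bub1b stood at 0 CPM in oligodendrocyte Rag2-/- replicate 5 and at 1.68 to 1.92 CPM in the rest of that group. Bub1b stood at 35.5 CPM in oligodendrocyte control replicate 3 and at 0 to 0.871 CPM in the rest of that group. Aurkb stood at 1.61 CPM in oligodendrocyte Rag2-/- replicate 1 and at 0 to 0.128 CPM in the rest of that group. Birc5 stood at 0.903 CPM in oligodendrocyte control replicate 3 and at 0 CPM in the rest of that group. Ube2c stood at 2.14 CPM in oligodendrocyte control replicate 6 and at 0.124 to 0.379 CPM in the rest of that group.

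Ccne1 stood at 4.43 CPM in astrocyte Rag2-/- replicate 4 and at 0.645 to 1.56 CPM in the rest of that group. Cdk2 stood at 11.5 CPM in astrocyte control replicate 1 and at 3.88 to 5.96 CPM in the rest of that group. Cdkn1a stood at 39.4 CPM in astrocyte control replicate 3 and at 9.3 to 13.4 CPM in the rest of that group. Rbl1 stood at 4.61 CPM in astrocyte control replicate 1 and at 0.662 to 1.6 CPM in the rest of that group. E2f2 stood at 3.06 CPM in astrocyte Rag2-/- replicate 1 and at 0 to 0.651 CPM in the rest of that group. Mcm2 stood at 7.43 CPM in astrocyte Rag2-/- replicate 3 and at 0.107 to 2.08 CPM in the rest of that group. Mcm5 stood at 14.9 CPM in astrocyte Rag2-/- replicate 1 and at 0 to 1.61 CPM in the rest of that group. Mcm5 stood at 1.46 CPM in astrocyte control replicate 1 and at 0 to 0.437 CPM in the rest of that group. Mcm6 stood at 14.9 CPM in astrocyte control replicate 1 and at 1.8 to 6.6 CPM in the rest of that group. Tyms stood at 6.23 CPM in astrocyte Rag2-/- replicate 5 and at 2.26 to 3.32 CPM in the rest of that group. Ccnb1 stood at 3.28 CPM in astrocyte control replicate 1 and at 0.189 to 0.541 CPM in the rest of that group. Ccnb2 stood at 10.6 CPM in astrocyte Rag2-/- replicate 1 and at 0 to 0.586 CPM in the rest of that group. Top2a stood at 14.6 CPM in astrocyte control replicate 1 and at 1.17 to 4.75 CPM in the rest of that group. Aurkb stood at 0.651 CPM in astrocyte Rag2-/- replicate 5 and at 0 to 0.11 CPM in the rest of that group. Aurkb stood at 2.27 CPM in astrocyte control replicate 3 and at 0 to 0.607 CPM in the rest of that group. Kif11 stood at 11 CPM in astrocyte control replicate 1 and at 1.17 to 2.62 CPM in the rest of that group.

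Ccne1 stood at 1.38 CPM in microglia Rag2-/- replicate 5 and at 0 to 0.491 CPM in the rest of that group. E2f3 stood at 53.3 CPM in microglia Rag2-/- replicate 6 and at 35.8 to 40.8 CPM in the rest of that group. E2f3 stood at 19.7 CPM in microglia control replicate 1 and at 36.7 to 44 CPM in the rest of that group. Cdk1 stood at 4.13 CPM in microglia control replicate 1 and at 0.25 to 1.33 CPM in the rest of that group. Aurka stood at 6.06 CPM in microglia Rag2-/- replicate 5 and at 0.589 to 2.36 CPM in the rest of that group. Aurkb stood at 0.802 CPM in microglia Rag2-/- replicate 3 and at 0 to 0.101 CPM in the rest of that group. Aurkb stood at 1.43 CPM in microglia control replicate 1 and at 0 to 0.205 CPM in the rest of that group.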

How the results depend on the processing

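Over all other settings and left-out libraries, 17 of the 26 calls of OPCs against oligodendrocytes, 23 of 32 against astrocytes and 28 of 29 against microglia were kept throughout. Leaving out each library in turn gave 23 to 28, 28 to 32 and 28 to 31 calls in these comparisons, 15 to 20 for oligodendrocytes against astrocytes, 18 to 22 against microglia and 24 to 27 for astrocytes against microglia. Total gene counts gave 40 calls for OPCs against oligodendrocytes. Without a filter on low counts 1 of the 43 genes was called by genotype in OPCs and 1 in astrocytes, and every other setting gave 0. Of 344 levels, 194 stayed within 1 SD of the reported mean without the mitochondrially encoded genes. Control libraries alone gave 21 calls against oligodendrocytes and 24 against astrocytes. A setting with fewer libraries has less power, and other causes were not tested.

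With the littermate pair as a replicate block in place of sex, 0 of the 43 genes were called by genotype, Mki67 in OPCs turned to -0.12, and no other genotype call changed. That fit had no term for sex, which differed within pair 6. With the mouse as a block there were 24 calls against oligodendrocytes and 31 against astrocytes.

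Small genotype differences changed sign. Ccnd1 in astrocytes was -0.018 and Mki67 in oligodendrocytes 0.0773 with heterozygous controls alone. Ccnd2 in astrocytes was -0.0003 with a mean count of at least 10 and -0.0004 with no filter, and Cdkn1a in astrocytes 0.0287 with no sex term. Mcm7 in oligodendrocytes minus microglia was -0.33 under total gene counts. Over the fits that each lacked a library, values in astrocytes ranged from -0.12 to 0.0859 for Ccnd2, -0.83 to 0.20 for Top2a, -0.38 to 0.28 for Cdkn1a, -0.30 to 0.0851 for Mki67 and -0.0919 to 0.17 for Ccnd1. In microglia they ranged from -0.57 to 0.0968 for Top2a and -0.0514 to 0.16 for Ccnd1. In oligodendrocytes they ranged from -0.91 to 0.0773 for Mki67 and -0.0527 to 0.43 for Ccnd2. In OPCs they ranged from -0.12 to 0.16 for Ccnd2, -0.23 to 0.0727 for Top2a and -0.15 to 0.18 for Mki67. Bub1b in oligodendrocytes minus astrocytes ranged from -0.42, without oligodendrocyte control replicate 3, to 2.05.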
